A study of Mus musculus with 7 samples.

Results

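The T cell receptor variable segments are the germline genes whose symbols start with Trav, Trbv, Trgv or Trdv. Of 170 such segments in the deposited count table, 88 had 10 or more reads over the 7 spleen libraries and are described here. They comprised 61 alpha (Trav), 22 beta (Trbv), 1 gamma (Trgv) and 4 delta (Trdv) segments, out of 55414 genes in the table. A further 64 segments had no read and 18 had fewer than 10. Just inside this limit were Trav2, Trav6-1 and Trav6d-4 with 11 reads each, and just outside it the pseudogene Trav8-2 with 9. The 88 segments held 99.5% of the 12866 reads counted on all 170. The study sequenced polyadenylated RNA of mouse spleen from 3 wild-type (WT) samples, whose genotype is given as C57BL/6N, and from 4 Fpr2KO samples, which lack the formyl peptide receptor gene Fpr2. No age or sex is stated for either group, nor a background strain for the Fpr2KO mice. The labels do not say whether replicates are separate animals, so p-values measure only the spread between these samples.

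Each T cell assembles its receptor by joining 1 variable segment of each chain to shorter joining (and, for beta and delta, diversity) segments and then to a constant region. The variable segment encodes most of the part that faces the antigen, and the junction at its end forms the third and most variable loop. Conventional CD4 and CD8 T cells carry alpha and beta chains, and a smaller lineage carries gamma and delta chains. In a whole spleen the reads on a segment therefore pool many clones, and the share of a segment among all reads of its chain is a measure of its use.

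Fpr2 had 537, 479 and 477 reads in the WT samples and 0 reads in each of the 4 Fpr2KO samples. Library totals ranged from 14968605 to 18692809 counts. Each library held 1301 to 2326 reads on the 88 segments. Pancreatic acinar markers, of which 4 of 14 passed the filter on low counts, summed to 929 and 529 CPM (counts scaled to library size, as edgeR's CPM) in Fpr2KO replicates 1 and 2, against 24.3 to 49.2 in the other libraries. The 6 neutrophil markers summed to 2602 to 3289 CPM in WT and 1035 to 1954 in Fpr2KO, without overlap. Most of each sum was S100a8 and S100a9, and Mmp8 and Cxcr2 overlapped between the groups. Of the 6, 0 had an adjusted p under 0.05 by edgeR. Over all genes tested, 5.91% did not overlap in CPM. The part of the acinar or the neutrophil content in the values below was not tested, beyond leaving out both acinar-rich libraries.

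Which alpha segments carried counts went with how much of their sequence was their own. In the C57BL/6 reference the alpha locus holds repeated blocks of near-identical segments, whose copies carry the letters d and n in their symbols. Of 55 unlettered Trav segments 40 reached 10 reads, against 11 of 39 d copies and 10 of 34 n copies. Uniqueness was measured as the share of 100-base stretches of a segment's transcript that occur in no other annotated gene's transcripts. Among Trav segments annotated as functional, 40 had under 10% unique stretches, and 37 of these had no read. Among the 56 with at least 50% unique stretches, 1 had no read and 52 had 10 or more. How the authors' counting treated reads that align to several places is not given in the sources used here.

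**Figure D1:**
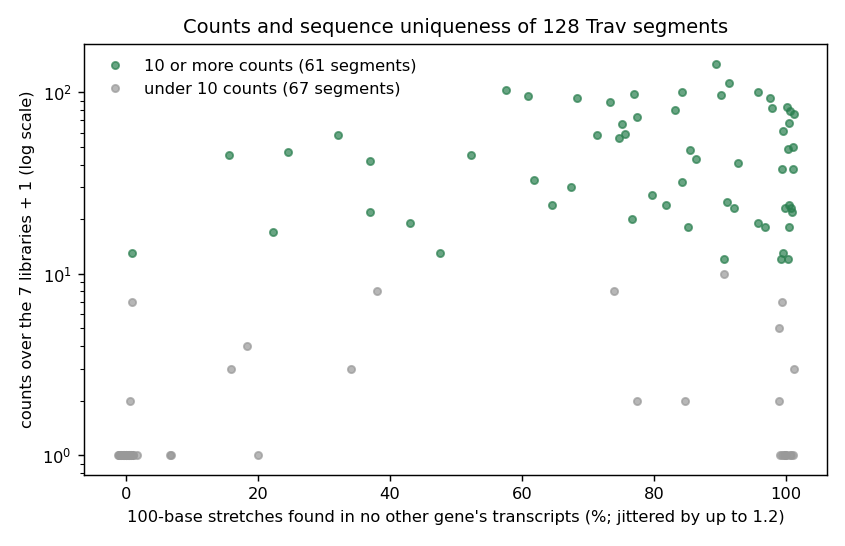
Each point is 1 of 128 annotated Trav segments (pseudogenes included), with the share of its 100-base stretches found in no other gene's transcripts (%, horizontal) against its reads over the 7 libraries plus 1 (log scale, vertical). Segments near 0% lie almost all at 0 reads, and the 61 segments with 10 or more reads (green) lie mostly to the right.

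Trav11 and its copy Trav11d show the limit most plainly, because mouse invariant natural killer T cells build their alpha chain from them. Both had 0 reads in all 7 libraries. Their last exons were identical over the 290 bases compared. The final stretch of that shared sequence is printed from the GENCODE M21 transcripts (GRCm38). It lies on the plus strand at chr14:53519799-53519858 for Trav11 and at chr14:52824853-52824912 for Trav11d.
Trav11: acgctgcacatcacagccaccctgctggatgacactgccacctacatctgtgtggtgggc
Trav11d: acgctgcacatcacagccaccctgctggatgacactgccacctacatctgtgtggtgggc
A count of 0 for these segments is therefore no measure of invariant natural killer T cells here. The pseudogene Trav11n, unique over 100% of its stretches, had 6 reads, of which 5 were in Fpr2KO replicate 3.

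The same arrangement held for Trav3-3, the alpha segment with the highest mean share over the 7 libraries. Trav3-3 had 143 reads, whereas its copies Trav3d-3 and Trav3n-3 had none. The copies were identical to each other over the 291 bases of the last exon and differed from Trav3-3 at 4 of them. In the stretches below, capitals mark the 2 positions at which Trav3-3 differs from both copies. They lie on the plus strand at chr14:53666427-53666486, chr14:52972959-52973018 and chr14:53284096-53284155, in the order printed.
Trav3-3: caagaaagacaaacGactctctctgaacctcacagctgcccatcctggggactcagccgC
Trav3d-3: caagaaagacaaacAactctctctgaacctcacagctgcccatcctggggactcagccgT
Trav3n-3: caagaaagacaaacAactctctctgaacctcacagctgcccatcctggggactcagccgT
Trav9-2 (112 reads) and Trav14-2 (100 reads) repeated this pattern. Each differed from its d and n copies, at 5 of 294 and 8 of 312 bases, while those copies were identical to each other and had 0 reads. In the Trav7-4 set no copy was identical to another over the last exon, and all were counted, with 102 reads on Trav7-4, 44 on Trav7d-4 and 31 on Trav7n-4. Alpha shares below are shares of the counted reads, to which such identical copies contributed none.

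The beta segments are free of this difficulty for the most part: the median Trbv segment had 100% unique stretches. Trbv4 and Trbv5 overlap the lincRNA 5830405F06Rik on the same strand and are less certain. The ends of the leading beta segments are shown because they are the germline start of the third loop. Trbv13-3, of the same family as Trbv13-2, and Trbv15, which came closest to a call in the tests below, are printed with them. Capitals run from the conserved cysteine codon (the last in-frame cysteine codon with a tyrosine codon among the 2 before it) to the end of the segment. All are on the plus strand of chromosome 6 (GRCm38), at chr6:41121785-41121832, chr6:41116421-41116468, chr6:41130538-41130585, chr6:40891838-40891885, chr6:41048781-41048828, chr6:41152183-41152230 and chr6:41141611-41141658, in the order printed.
Trbv13-2: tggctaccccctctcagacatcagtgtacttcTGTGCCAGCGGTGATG
Trbv13-1: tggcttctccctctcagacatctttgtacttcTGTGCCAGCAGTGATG
Trbv13-3: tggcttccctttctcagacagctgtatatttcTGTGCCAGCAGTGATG
Trbv1: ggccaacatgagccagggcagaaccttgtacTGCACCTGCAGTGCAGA
Trbv3: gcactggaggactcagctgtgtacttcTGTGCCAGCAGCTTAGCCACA
Trbv16: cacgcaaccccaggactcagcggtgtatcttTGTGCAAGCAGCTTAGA
Trbv15: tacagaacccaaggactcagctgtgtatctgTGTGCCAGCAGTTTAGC
The 3 Trbv13 segments were 86.1% to 91.8% identical over the 294 bases of their last exon, and each was unique over 100% of its 100-base stretches. Trbv13-1 and Trbv13-3 end in the same 16 capitals, which differ from those of Trbv13-2.

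The Trbv13 family, known as V beta 8 in the older nomenclature, took the largest share of beta reads of any family, with a mean of 21.8% over the 7 libraries. Trbv13-2 had the highest mean count share over the 7 libraries. It led alone in 3 of them, tied with Trbv3 and Trbv16 in Fpr2KO replicate 3, and lay below Trbv3, Trbv1 or Trbv16 in the other 3. It took 10.7%, 7.92% and 9.63% of Trbv reads in WT and 9.65%, 7.58%, 9.24% and 10.3% in Fpr2KO. The groups overlapped over nearly their whole range, with means of 9.43% ± 1.42 (SD, n = 3) and 9.20% ± 1.17 (SD, n = 4). Counting error alone was of that order: in WT replicate 1, with 96 of 894 Trbv reads, the Wilson 95% interval of the share ran from 8.87% to 12.9%. Such intervals cover counting error only.

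Trbv1, Trbv3, Trbv16 and Trbv13-1 followed, with mean count shares of 8.59%, 8.43%, 8.31% and 7.06%. On the share scale adjusted for exonic length, Trbv13-2 had the highest mean at 10.7% (8.76% to 12.3% over the libraries) and led in 5 of 7 libraries. Trbv16 then stood at 8.17% (6.91% to 9.66%), Trbv1 at 8.06% (7.04% to 10.5%) and Trbv13-1 at 7.55% (5.73% to 8.72%). All 4 ranges overlapped their neighbours', except that the lowest value of Trbv13-2 lay above the highest of Trbv13-1. These ranges over libraries thus separated only that pair. Compared within each library, Trbv13-2 also lay above Trbv1 on the length-adjusted scale in every library. Trbv3 took 11.0% of Trbv reads in WT replicate 2, against 6.60% in WT replicate 1. That spread within WT was wider than the 7.53% to 9.24% seen in Fpr2KO. Trbv1 reached 11.2% in Fpr2KO replicate 1 and lay between 7.47% and 8.84% in the other 6 libraries. Trbv12-2, Trbv13-3, Trbv2 and Trbv29 came next in count share, at 5.79%, 5.43%, 5.32% and 4.84%.

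**Figure D2:**
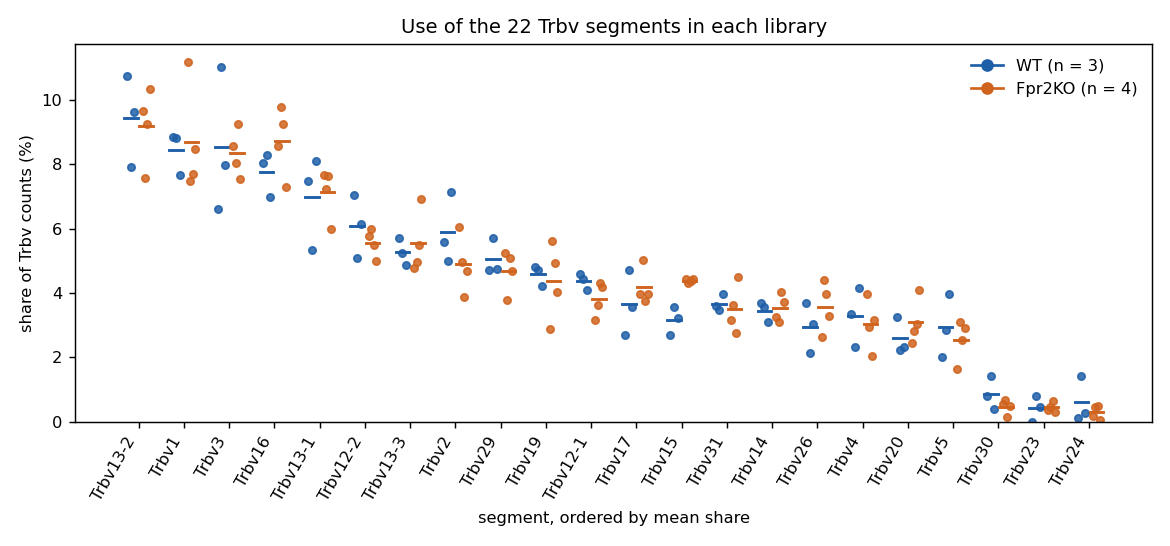
Share of each of the 22 Trbv segments among all Trbv reads of a library (%, vertical), by segment in order of mean share. Points are libraries and bars group means, for WT (blue, n = 3) and Fpr2KO (orange, n = 4). The groups overlap in every segment but Trbv15, where the Fpr2KO libraries lie at 4.30% to 4.42% and the WT libraries at 2.68% to 3.56%.

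At the other end, Trbv30, Trbv23 and Trbv24 each took under 1% of beta reads on average. Trbv24, an annotated pseudogene, was the member whose reads varied most between libraries relative to counting noise. It had 1, 16 and 4 reads in WT and 2, 8, 7 and 1 in Fpr2KO. WT replicate 2 thus held 16 of its 39 reads. Trbv24 was chosen for mention after its values were seen.

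Single alpha segments took smaller shares than the leading beta segments, with 61 Trav segments against 22 Trbv segments to divide the reads. Trav3-3 took 3.97%, 5.51% and 5.30% of Trav reads in WT and 3.00%, 4.15%, 4.52% and 6.60% in Fpr2KO. Fpr2KO held both the lowest and the highest of these values, and Trav3-3 led alone in 2 of the 7 libraries and tied in 1. Trav9-2, Trav9-4, Trav7-4, Trav14-2, Trav14n-3, Trav13-1 and Trav12-2 followed, with mean count shares from 3.88% down to 3.19%. On the length-adjusted share scale Trav3-3 also had the highest mean, 4.41%, and led in 2 libraries, while Trav9-2, which has the longer annotated exons, moved from rank 2 to rank 13 at 2.70%. Families gathered more: Trav14 (5 segments), Trav7 (8 segments) and Trav9 (5 segments) took mean shares of 13.8%, 12.7% and 12.6%. The d copies held 7.87% to 11.4% of Trav reads and the n copies 11.6% to 16.8%, with overlap between the groups in both.

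**Figure D3:**
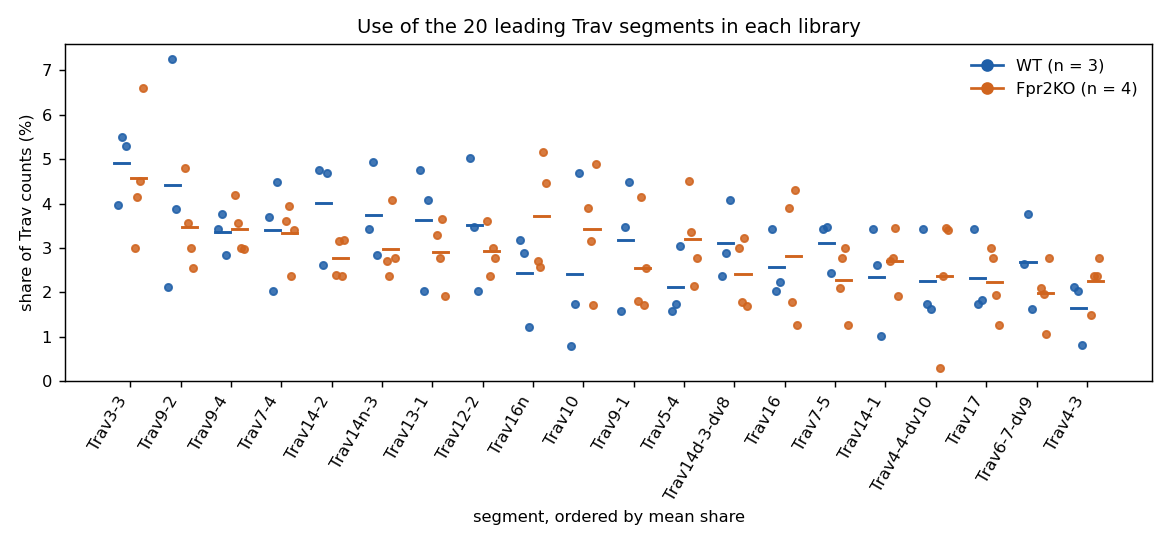
Share of the 20 leading Trav segments among all Trav reads of a library (%, vertical), by segment in order of mean share. Points are libraries and bars group means, for WT (blue, n = 3) and Fpr2KO (orange, n = 4). No segment but Trav3-3 exceeds 4% as a mean over the 7 libraries, and in every segment shown the groups overlap.

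Trav1 is the alpha segment of mucosal-associated invariant T cells. It had 0, 1 and 3 reads in WT and 2, 3, 0 and 3 in Fpr2KO, a total of 12. With 0 of 378 Trav reads, WT replicate 1 allows a share of up to 0.794%. Trbv29 and Trbv1, which invariant natural killer T cells use beside Trbv13-2, took overlapping shares in the groups. Trbv29 stood at 5.05% ± 0.561 (SD, n = 3) in WT and 4.69% ± 0.647 (SD, n = 4) in Fpr2KO. Conventional T cells use all 3 of these beta segments as well.

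Reads on the Trgv and Trdv segments were few. Segments named for both the alpha and the delta chain, such as Trav14d-3-dv8 with 81 reads, were counted as Trav. Which chain their reads came from was not tested, so the Trdv reads need not be all delta variable reads. Only Trgv2 bears the Trgv prefix in this annotation, so its share of its own chain is fixed. It had 12, 31 and 26 reads in WT and 20, 14, 19 and 25 in Fpr2KO. Of the 6 gamma segments named Tcrg-V, looked up after this was noticed, Tcrg-V4 had 125 reads, Tcrg-V1 had 113 and the others 3 to 8, against 147 on Trgv2. Trgv2 and Tcrg-V1 share some 50-base stretches. Trgv2 ends at chr13:19336573-19336620 on the minus strand, and Trdv4, the delta segment with the most reads, at chr14:54075468-54075515 on the plus strand, with capitals as for the beta segments.
Trgv2: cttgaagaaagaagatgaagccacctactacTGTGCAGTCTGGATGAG
Trdv4: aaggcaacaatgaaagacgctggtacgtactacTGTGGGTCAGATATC
Trdv4 had 5, 7 and 11 reads in WT and 8, 17, 15 and 22 in Fpr2KO. Trdv2-2 had 7, 10 and 13 reads in WT and 14, 7, 12 and 15 in Fpr2KO, and Trdv5 had 39 in all. Antisense genes overlap Trdv2-2 and Trdv4, and Trdc overlaps Trdv5 on the other strand. Without the strand setting of the counting, reads of such partners cannot be told apart.

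The summed levels of the chains overlapped between the genotypes. Trbv reads summed to 59.9, 73.7 and 93.3 CPM in WT and 65.3, 94.9, 83.9 and 83.8 CPM in Fpr2KO. WT replicate 1 and Fpr2KO replicate 1 were lowest, and WT replicate 3 and Fpr2KO replicate 2 highest. Erythroid marker sums, over 6 genes of which 0 were called, were lowest in the latter 2 libraries, at 14771 and 9952 CPM. They stood at 41440, 90237 and 49492 CPM in WT replicates 1 and 2 and Fpr2KO replicate 1, the 3 libraries with the lowest Trbv sums, and their part in these sums was not tested. The Trbv sums of the groups overlapped, with means of 75.6 ± 16.8 (SD, n = 3) and 82.0 ± 12.3 CPM (SD, n = 4). Trav reads summed to 26.1 ± 3.86 CPM in WT (SD, n = 3) and 24.7 ± 3.66 in Fpr2KO (SD, n = 4). Trdv reads summed to 1.58 ± 0.418 CPM in WT (SD, n = 3) and 2.23 ± 0.473 in Fpr2KO (SD, n = 4), also with overlap. In bulk spleen, fewer T cells and less receptor RNA per cell cannot be told apart.

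The 7 alpha beta constant and CD3 genes, fixed as a T cell list, summed to 457, 490 and 610 CPM in WT and 433, 636, 582 and 548 in Fpr2KO, highest in the same 2 libraries. Per 100 reads of the beta constant genes Trbc1 and Trbc2 there were 39.1 to 43.4 Trbv reads, with a mean of 41.3 ± 1.84 in WT (SD, n = 3) and 41.2 ± 1.65 in Fpr2KO (SD, n = 4). Per 100 Trac reads there were 25.5 to 29.0 Trav reads. The beta variable reads thus varied much less against their constant genes than against the whole library.

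**Figure D4:**
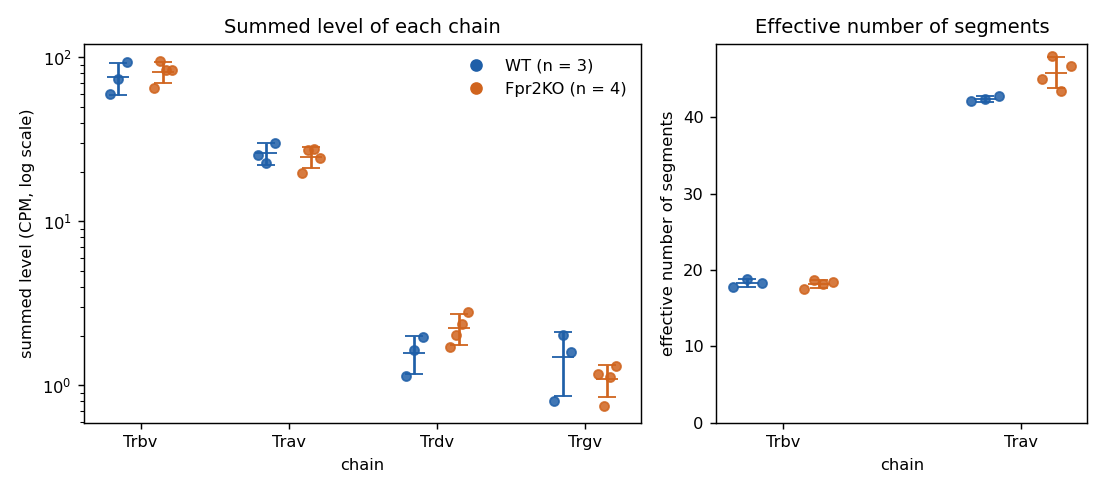
Left, summed level of the members of each chain (CPM, log scale) by library. Right, effective number of segments. Points are libraries, and bars the mean and SD, for WT (blue, n = 3) and Fpr2KO (orange, n = 4). The groups overlap in all 4 summed levels and in the effective number of Trbv segments, and do not overlap in that of Trav.

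The effective number of segments is the number of equally used segments that would give the same Shannon entropy. For Trbv it was 17.8, 18.8 and 18.4 in WT and 17.5, 18.7, 18.1 and 18.4 in Fpr2KO. For Trav it was 42.1, 42.4 and 42.8 in WT and 45.0, 48.1, 43.4 and 46.7 in Fpr2KO. Every Fpr2KO library lay above every WT library for Trav, by a mean of 3.39 segments, whereas the Trbv values overlapped. No test was made of these summary values. The Trav difference was 0.235 when segments were summed into families and 0.379 when only segments with 50 or more reads were kept. Both sets hold fewer units than the 61 Trav segments, but the difference shrank by a larger factor than the number of units did. The cause was not tested. The number of Trav segments expected in 333 reads, the smallest chain total, was 55.1 to 55.7 in WT and 53.2 to 57.7 in Fpr2KO, so that count of segments overlapped between the groups. The effective number itself was not brought to equal depth.

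The level of each segment was then compared between Fpr2KO and WT, and none passed the threshold of an adjusted p of 0.05. The filter on low counts left 41 of the 88 for testing: 19 Trav, 19 Trbv, 2 Trdv and Trgv2. In edgeR's quasi-likelihood test across 16089 genes, with Benjamini-Hochberg adjustment, 0 of the 41 were called, where 0.0373% of all genes tested were. None had an unadjusted p under 0.05 either, against 4.98% of all genes. DESeq2 called 0 of the 41 and 0.354% of all genes. Log2 fold changes were above 0 for 22 segments and below 0 for 19, with a median of 0.05, where the median of all genes was -0.005. With every segment of 10 or more reads admitted, edgeR again called 0 of 88, where it called 0.043% of the 20913 genes tested then. Of the 88, 4 had an unadjusted p under 0.05, against 4.81% of those genes.

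The same holds for use within a chain. For this question the fit across all genes was repeated with the chain's own read total as the library size, so that a fold change is one of share. Of 40 segments tested, edgeR called 0 at an adjusted p of 0.05, where it called 0.0435% of all genes on the Trav scale, 0.783% on the Trbv scale and 1.8% on the Trdv scale. No segment's unadjusted p was under 0.05, where 2.31%, 3.61% and 18.9% of all genes were on the same 3 scales. By DESeq2 0 segments were called, with 0.0994%, 0.155% and 0.752% of all genes. The 95% intervals of the 19 Trbv segments all spanned 0, and their outermost ends were folds of 0.518 and 2.23. Those of the 19 Trav segments also spanned 0, with outermost ends of 0.360 and 3.14. Standard errors of the log2 fold change of share were 0.30 to 0.38 for Trbv and 0.41 to 0.56 for Trav. For the level they were 0.16 to 0.42 and 0.30 to 0.63. The share errors and intervals rest in part on the spread of all genes relative to the chain total. They are therefore not a measure of the spread of the segment shares alone.

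**Figure D5:**
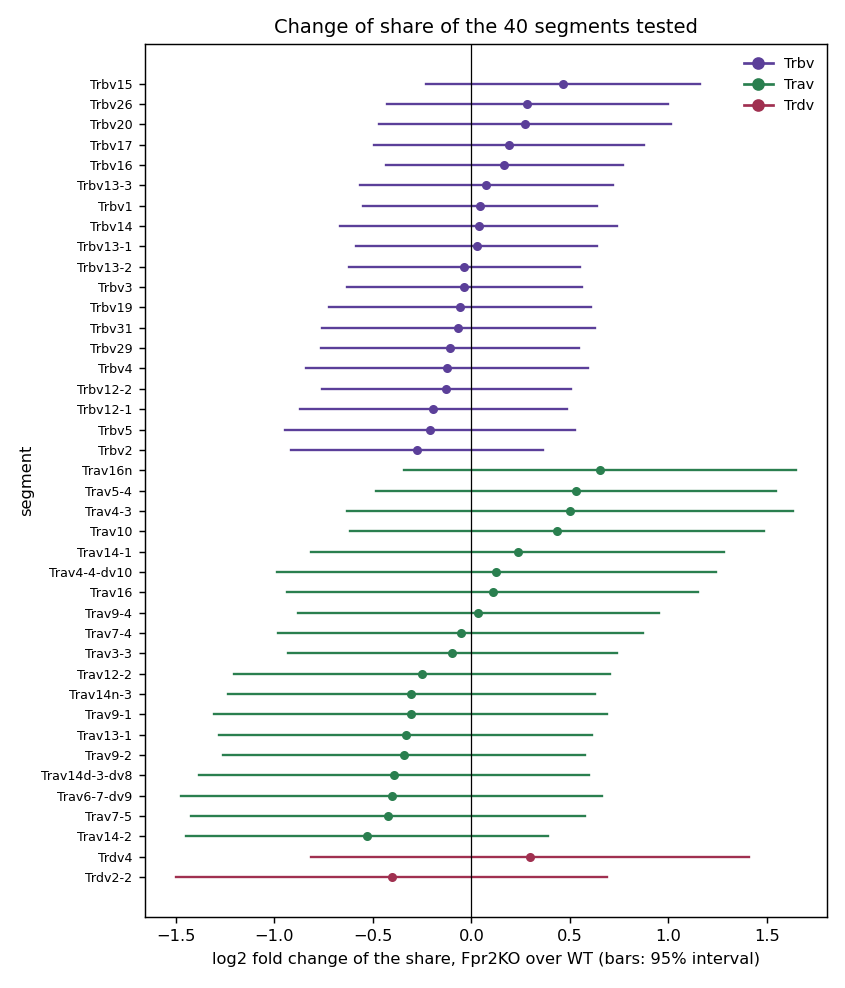
Log2 fold change of the share, Fpr2KO over WT (horizontal), for the 40 segments tested, grouped by chain and ordered by size. Points are estimates and lines 95% intervals from edgeR's quasi-likelihood fit. Every interval crosses 0, and the Trav intervals are wider than the Trbv intervals.

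Trbv15 came closest. It had 24, 40 and 49 reads in WT and 49, 76, 62 and 71 in Fpr2KO. Its share was 2.68%, 3.56% and 3.23% in WT and 4.42%, 4.30%, 4.38% and 4.42% in Fpr2KO, so the groups did not overlap in share. Their CPM values did overlap, with means of 2.42 ± 0.726 (SD, n = 3) and 3.58 ± 0.502 (SD, n = 4). The log2 fold change of its level was 0.57 (SE 0.25), with an unadjusted p of 0.0506 and an adjusted p of 1.00 by edgeR. Without WT replicate 1, which had its lowest share, the estimate was 0.35 with an unadjusted p of 0.170 by edgeR. On the share scale the log2 fold change was 0.46 (SE 0.35, 95% interval -0.23 to 1.16), with an adjusted p of 0.999 by edgeR. The 4 Fpr2KO shares lay closer to each other than their counting error: the narrowest of their Wilson 95% intervals ran from 3.45% to 5.35%.

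The other beta segments with the smallest p on the share scale were Trbv26 and Trbv20 among those with a higher estimate in Fpr2KO, with log2 fold changes of 0.28 (SE 0.36) and 0.27 (SE 0.38). Among those with a lower estimate were Trbv2 at -0.28 (SE 0.33), Trbv5 at -0.21 (SE 0.38) and Trbv12-1 at -0.19 (SE 0.34). Trbv2 took 5.59%, 4.98% and 7.12% of Trbv reads in WT and 6.04%, 4.98%, 3.88% and 4.67% in Fpr2KO. These values overlap, and each of these edgeR estimates was smaller than its standard error. Trbv26 depended on the setting: its share log2 fold change was 0.10 without WT replicate 2 and 0.72 by limma-voom. That last was a call (adjusted p = 0.0190 by limma-voom), where 23.6% of all genes were called, and its adjusted p over all settings ran from 0.0190 to 1.00.

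Among alpha segments, Trav16n, Trav5-4 and Trav4-3 had the smallest p of those with a higher estimate, with share log2 fold changes of 0.65 (SE 0.50), 0.53 (SE 0.50) and 0.50 (SE 0.56). Trav14-2, Trav7-5 and Trav14d-3-dv8 had the smallest of those with a lower one, at -0.53 (SE 0.46), -0.42 (SE 0.50) and -0.39 (SE 0.49). Trav16n had 12, 10 and 6 reads in WT and 9, 13, 24 and 21 in Fpr2KO, so 2 Fpr2KO libraries held its high values. Trav14-2 had 18, 9 and 23 reads in WT and 8, 16, 11 and 15 in Fpr2KO, with overlap. For Trgv2 the log2 fold change of the level was -0.44 (SE 0.36), and for Trdv4 it was 0.79 (SE 0.43), with an unadjusted p of 0.0935 by edgeR.

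Of the 88 segments, 7 had CPM values that did not overlap between the groups, 3 higher and 4 lower in Fpr2KO, and none of the 7 was among the 41 tested. Over all genes tested, 5.91% did not overlap, 2.73% higher and 3.18% lower. In chain share, 5 of 61 Trav and 1 of 22 Trbv segments did not overlap, where 3.04% and 2.54% of all genes did not when divided by the same chain totals. These rates are not like for like. The genes all passed the filter on low counts, whereas 19 of the 61 Trav and 19 of the 22 Trbv segments did. Genes of all spleen cells divided by a chain total also vary with T cell content, which a share within a chain does not. The segment with the most reads among the 7, Trav13-4-dv7, is 1 of those named for both the alpha and the delta chain. It had 12, 9 and 13 reads in WT and 5, 9, 6 and 3 in Fpr2KO, which gave 0.731 ± 0.123 CPM (SD, n = 3) and 0.322 ± 0.136 (SD, n = 4). Trav8d-1 had 0, 2 and 1 reads in WT and 5, 6, 6 and 3 in Fpr2KO. Both were singled out after their values were seen, and neither was called in the fit without the filter, where each had an adjusted p of 0.999 by edgeR.

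Replicates of the same group also differed in use beyond counting noise. Over the 22 Trbv segments the chi-square statistic per degree of freedom, which is near 1 for counting noise alone, was 2.43 among the WT libraries, 1.96 among the Fpr2KO libraries and 1.96 between the pooled groups. For the 35 Trav segments with at least 35 reads in all it was 2.20, 1.42 and 1.81. The share of Trbv reads that would have to move to turn 1 library's use into another's was 8.19% to 11.7% between groups, 8.75% to 12.1% within WT and 7.41% to 10.5% within Fpr2KO. For Trav it was 22.8% to 30.9%, 28.0% to 28.2% and 20.3% to 27.2%. These distances include counting error, whose part was not measured. It weighs more on Trav, with 333 to 506 reads per library on 61 segments, than on Trbv, with 894 to 1768 on 22. The distances of the 2 chains are therefore not comparable.

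No other gene of the receptor lists was called, where 0.0373% of all genes tested were. Over all genes tested, 48.6% had an estimate above 0. For the 7 constant and CD3 genes the log2 fold changes were all above 0, with a median of 0.07. Trbc2 stood at 0.15 (SE 0.16), and Cd3g, a signalling subunit of the receptor complex, at 0.14 (SE 0.17). Of 6 coreceptor and costimulatory genes 0 were called, with Cd8b1 at 0.10 (SE 0.10) and Cd4 at -0.07 (SE 0.20). Of 8 proximal signalling genes 0 were called and 7 had estimates below 0, including the kinases Lck at -0.14 (SE 0.12) and Zap70 at -0.15 (SE 0.18). Of 5 gamma delta genes found in the annotation 0 were called, with the constant gene Tcrg-C4 at 0.34 (SE 0.18) and Trdc at 0.19 (SE 0.20). Rag1 and Rag2, which cut the segments for joining in developing lymphocytes, were at or below 0.655 CPM in every library.

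Among natural killer T cell genes 0 of 4 were called. The log2 fold changes of Klrb1c, Cd1d1 and Il2rb were 0.07 (SE 0.14), 0.09 (SE 0.08) and -0.11 (SE 0.11). Zbtb16, the transcription factor of innate-like T cells, stood at 9.99, 10.9 and 1.72 CPM in WT and 5.89, 2.95, 2.25 and 2.19 in Fpr2KO. The 2 highest values were both WT, but WT replicate 3 was the lowest of all 7. The log2 fold change of Zbtb16 was -1.18 (SE 0.66), with an unadjusted p of 0.121 by edgeR. Zbtb16 was highest in WT replicates 1 and 2 and Fpr2KO replicate 1, the libraries with the highest erythroid marker sums. A part of erythroid content in its values was not tested.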

How the data were processed

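The authors deposited unnormalized counts, whole numbers for each Ensembl gene, in a single table of 7 columns. FastQC 0.10.1, HTSeq 0.10.0 and the build mm10 (GRCm38) are named in the submitters' processing notes. The aligner, annotation release, strand setting and treatment of multiply aligned reads are not given in the sources used here. GENCODE M21 named 52081 of 55414 IDs, with 99.8% of counts. The segments and gene lists were chosen with earlier results of these data known.

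Levels were tested with edgeR 4.0.16 (R 4.3.3; TMM, filterByExpr, robust quasi-likelihood test), adjusting p over all genes. Shares were tested in the same fit with each chain's total as the library size. CPM used TMM factors; length-adjusted shares used counts per exonic base. DESeq2 1.42.0, limma 3.58.1 (voom with a quality weight for each sample), other scalings, no filter, left-out replicates and a replicate block were alternatives. The fits were tested on simulated data. Uniqueness was computed from GENCODE M21 transcripts, which also gave the printed sequences. Segments named were Fpr2, the leading shares per chain (8 Trbv, 8 Trav, Trgv2, 3 Trdv), the 3 smallest share p in each direction for Trbv and Trav at a mean share of at least 1%, and those of invariant T cells; from each T cell list up to 4 genes with the smallest p.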

Additional observations from a re-analysis of the deposited data

Results flagged for a closer look

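Of 52 values checked for an outlying library among the 4 Fpr2KO samples, 1 stood apart: the share of Trav1 in Fpr2KO replicate 3 was 0, against 0.593% to 0.638% in the other Fpr2KO samples. These shares rest on 0 and on 2 or 3 reads. Chance flags about 1 in 20 such groups. The WT groups of 3 were too small for this check.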

How the results depend on the processing

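The count of segments called in the fit across all genes was 0 under the main settings and under all 15 alternatives. These included the fit without both Fpr2KO replicates 1 and 2 (45 segments tested) and the fit with the replicate block, which called 0 of 41. On the chain share scale the count was 0 under the replicate block as well and under every alternative but limma-voom, which called 1, Trbv26 (log2 fold change 0.72, adjusted p = 0.0190). Its adjusted p ranged from 0.0190 to 1.00 over the settings, and limma-voom called 23.6% of all genes on that scale. For Trbv15 the unadjusted p of the level ranged from 0.0243 to 0.170 and the adjusted p from 0.701 to 1.00. Same-numbered samples of the groups did not deviate together (correlations of 0.08, -0.43 and -0.07), so the numbers were not taken as pairs. The difference in the effective number of Trav segments, Fpr2KO minus WT, was 3.39. It moved to 0.235 for families and to 0.379 for segments with 50 or more reads. Both sets hold fewer units than all Trav segments, but the difference shrank by a larger factor than the number of units did. The cause was not tested. The difference was 4.73 with the unbiased inverse Simpson index, chosen after seeing the data. Leaving out 1 replicate gave 2.65 to 4.19. The difference in summed Trav level was -1.35 CPM with TMM and 0.162 CPM without a scaling factor, and it also changed sign without WT replicate 3 or Fpr2KO replicate 1 (0.729 and 0.346). The Trbv difference of 6.34 CPM changed sign without WT replicate 1 (-1.51). Of 262 alternative values of the 31 named shares, 262 moved by less than 1 SD and 20 changed sign, none of them called. In groups this small, leaving out 1 replicate cannot move a difference by 1 pooled SD. For those alternatives the bound was therefore no check of stability. With 333 to 506 Trav reads per library, single alpha segments had wide intervals, and replicates also varied beyond counting error.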
